A study of Mus musculus with 17 samples.

Results

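The 10 mouse genes Gbp2, Gbp3, Gbp4, Gbp5, Gbp7, Gbp9, Irgm1, Irgm2, Igtp and Iigp1 encode interferon-inducible GTPases, and accessible chromatin was followed around them. Their elements were chosen by position among those that enough peak lists held. An element is a stretch of merged peak intervals that at least 2 peak lists shared, and the elements taken were those within 20 kb of the bodies of the 10 genes in the GENCODE annotation of mm10. There were 31 such elements among 34186 in the genome, and 10 of them held a promoter of these genes, with the summit within 1 kb of the transcription start. Distances are from the most upstream start among the protein-coding HAVANA transcripts of GENCODE, and longer annotated transcripts can start further out. The elements 3.9 kb upstream of Gbp9 and 4.8 kb upstream of Irgm2 therefore lie in introns of these genes. The 31 elements fell into 6 loci. Gbp5, Gbp7 and Gbp3 on chromosome 3 had 11 elements, Gbp2 on the same chromosome had 2, and Gbp9 with Gbp4 on chromosome 5 had 4. Igtp with Irgm2 on chromosome 11 had 7, Irgm1 on the same chromosome had 4, and Iigp1 on chromosome 18 had 3.

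Chromatin was profiled by ATAC-seq, in which a transposase cuts accessible DNA, in bone marrow-derived macrophages (BMDMs) of male C57Bl6/J mice aged 6 to 12 weeks. The cells were wild type (WT, 8 lists) or lacked the nuclear receptor Nur77, encoded by Nr4a1 (Nur77-KO, 9 lists, genotype "cre" in the labels), and were matured for 7 days in L929-conditioned medium. The Nur77-KO was a whole-body deletion, made with a Cre recombinase driven by the CMV promoter and a loxP-flanked Nr4a1 locus. The paper states that the Nur77-KO mice then bred for use lacked Cre expression, and that WT littermates were used beside them. Both genotypes were kept without lipopolysaccharide (LPS, 0 h) or received 100 ng/ml LPS for 1 or 18 h, with 3 lists per group except WT at 1 h, which had 2, named replicates 1-2 and 3.

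Guanylate-binding proteins (Gbp) and immunity-related GTPases (Irgm1, Irgm2, Igtp, also called Irgm3, and Iigp1, also called Irga6) are enzymes that assemble on the vacuoles of intracellular bacteria and parasites. Gbp2 and Iigp1 take part in breaking such vacuoles open, Gbp5 promotes assembly of the NLRP3 inflammasome, and the Irgm proteins act as regulators that keep the other immunity-related GTPases inactive on the cell's own membranes. Transcription of these genes is known to be driven by interferons. Interferon-beta acts at the interferon-stimulated response element (ISRE), interferon-gamma acts at the gamma-activated site (GAS), and macrophages that sense LPS make interferon-beta and respond to it.

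Peak strength was expressed as rank. In each list the intervals were sorted by the deposited −log10 p-value, and rank 1 is the strongest peak. The lists held 24389 to 71456 intervals, so the best 24389 of each were compared, and an element beyond that rank or without a peak was set to 24390. A change is the difference of −log2 rank, so a positive value is a move up the list. It says how an element stood against all other peaks of the same cells, not how much DNA was open. Changes carry the SE and the Benjamini-Hochberg adjusted p of a limma fit over all 34186 elements. Nothing in the labels states that replicates came from separate animals, so the p-values measure the spread between these lists.

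The lists differed in more than treatment. The median interval was 135 bp wide in Nur77-KO 18 h replicate 1 and 338 to 661 bp in the other 16 lists, and that list stood apart in several results below. A promoter peak was present in all 17 lists for 4 of 8 macrophage markers (Adgre1, Itgam, Spi1 and Mertk) and in 12 to 16 lists for the other 4. None of the 3 T cell markers had one in any list. Among markers of other cells, Camp and Col1a1 had one in 14 lists each, Zbtb46 in 16, Pdgfra in 11, Flt3 in 7 and Mpo and Pax5 in 5, while Ly6g, Elane, Xcr1, Cd79a and Col1a2 had none. Some moved with time: at 0, 1 and 18 h Flt3 had one in 5, 2 and 0 lists, Mpo in 3, 2 and 0, Pax5 in 4, 1 and 0, and the macrophage marker Csf1r in 2, 5 and 5, of 6, 5 and 6. The part of other cells in the results was not tested. The lists were no check of the deletion: a peak reached into Nr4a1 (chromosome 15, 101267846 to 101274795) more than 1 kb beyond its most downstream start in 5 of 8 WT and 2 of 9 Nur77-KO lists.

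The sequences under 6 of the elements are printed to show where the ISRE and GAS lie, which 12 and 8 of the 31 GTPase elements held. Each lies within 149 bases of the summit, was read from the + strand of mm10, and was trimmed to leave out annotated exons. Capitals mark matches of the motifs sought, which are the ISRE core GAAANNGAAA, the GAS TTCNNNGAA, AP-1 TGANTCA and the NF-kB motif, each on either strand.
Gbp2 promoter chr3:142620515-142620613: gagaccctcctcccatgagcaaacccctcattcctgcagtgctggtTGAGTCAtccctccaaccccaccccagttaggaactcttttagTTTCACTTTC
Gbp5 promoter chr3:142496595-142496893: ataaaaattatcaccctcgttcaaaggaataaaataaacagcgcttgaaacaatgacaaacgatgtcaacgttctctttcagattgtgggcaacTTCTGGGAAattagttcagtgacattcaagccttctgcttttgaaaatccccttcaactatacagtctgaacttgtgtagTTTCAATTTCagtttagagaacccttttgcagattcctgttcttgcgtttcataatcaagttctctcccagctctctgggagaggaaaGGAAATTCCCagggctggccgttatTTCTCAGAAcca
Igtp promoter chr11:58199359-58199555: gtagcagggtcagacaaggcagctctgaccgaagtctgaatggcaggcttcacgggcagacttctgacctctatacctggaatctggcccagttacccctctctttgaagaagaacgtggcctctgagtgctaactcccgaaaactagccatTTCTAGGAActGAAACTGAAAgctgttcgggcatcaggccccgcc
Irgm2 promoter chr11:58214771-58214976: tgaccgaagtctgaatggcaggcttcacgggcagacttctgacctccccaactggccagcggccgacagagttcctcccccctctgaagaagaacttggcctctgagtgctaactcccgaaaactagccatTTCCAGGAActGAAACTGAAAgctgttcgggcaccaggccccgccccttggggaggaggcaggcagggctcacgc
Element upstream of Igtp chr11:58183640-58183842: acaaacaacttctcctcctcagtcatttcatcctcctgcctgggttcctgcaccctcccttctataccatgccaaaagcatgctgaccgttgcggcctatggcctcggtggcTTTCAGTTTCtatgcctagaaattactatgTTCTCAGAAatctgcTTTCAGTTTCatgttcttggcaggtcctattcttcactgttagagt
Irgm1 promoter chr11:48872242-48872540: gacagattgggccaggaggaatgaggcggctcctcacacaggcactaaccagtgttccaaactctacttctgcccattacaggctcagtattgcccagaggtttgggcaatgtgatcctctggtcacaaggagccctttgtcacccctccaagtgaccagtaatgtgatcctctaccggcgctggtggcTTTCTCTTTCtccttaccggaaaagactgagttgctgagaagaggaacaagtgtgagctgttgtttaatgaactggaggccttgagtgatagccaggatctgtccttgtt
The Gbp2 stretch runs 12 bases into the first exon of the GENCODE transcript, so as to end with its ISRE core. It has an AP-1 match before that core. The Gbp5 stretch holds a GAS, an ISRE core, an NF-kB match and a further GAS. The promoters of Igtp and Irgm2 carry the same arrangement, a GAS followed closely by an ISRE core, in flanks that are almost the same. The element upstream of Igtp holds a GAS between a pair of ISRE cores. The printed stretch ends where RefSeq starts Gm12250, and the element runs on into it. Gm12250 is the gene of a further immunity-related GTPase called Irgb10. GENCODE lists it as a pseudogene, with no start at this element. The Irgm1 stretch holds 1 ISRE core, and its summit lay 971 bp from the start of the gene.

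Within 150 bases of the summit, an ISRE core was found in 12 of the 31 GTPase elements (38.7%) and in 5.22% of all 34186 elements. A GAS was found in 8 (25.8%) against 8.34% of all. AP-1 was found in 6 (19.4%) against 23.3%, NF-kB in 2 (6.45%) against 6.57%, PU.1 (GAGGAAGT) in 1 (3.23%) against 9.37%, and the NBRE (AAAGGTCA), to which Nur77 binds as a monomer, in 1 (3.23%) against 1.57%. The single NBRE lay in the element 10.8 kb downstream of the Irgm2 start. Matches of different motifs were allowed to overlap. In RefSeq promoter windows (GRCm38.p6, 250 bases before to 50 after a start), 7 of the 10 genes were matched, and 7 of their 8 windows held an ISRE core, with all 7 genes among them, against 3.44% of 32851 windows. Gbp4, Gbp9 and Iigp1 were not matched, and none of the motifs above was found within 150 bases of the summits of their promoter elements. A GAS was in 4 of the 8 windows (Gbp5, Gbp7, Igtp and Irgm2), against 8.3% of all. AP-1 was in 2 (Gbp2 and Irgm1) against 7.81%, NF-kB in 1 (Gbp5) against 4.51%, and PU.1 and the NBRE in none against 3.2% and 1.51%. The median GC content of the 301-base windows was 46.8% at the GTPase elements and 51.2% at all elements.

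**Figure D1:**
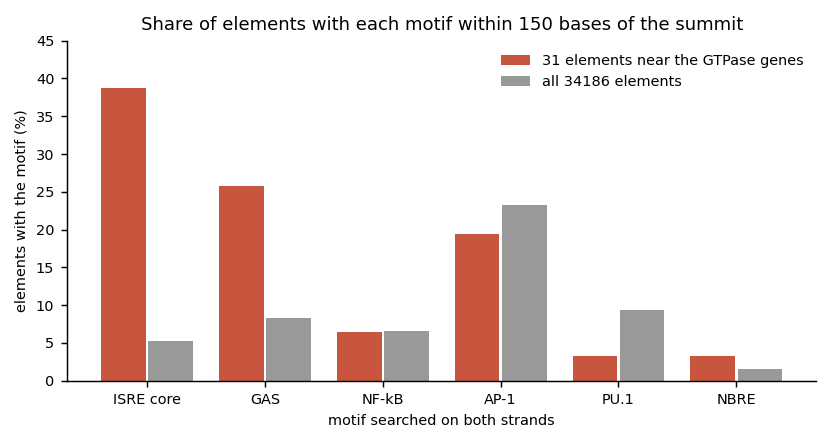
Share of elements (y axis, percent) that hold each motif (x axis) within 150 bases of the summit on either strand, for the 31 GTPase elements and for all 34186 elements. ISRE core and GAS stand at 38.7% and 25.8% of the GTPase elements against 5.22% and 8.34% of all.

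LPS moved the Gbp2 promoter element (chr3:142618526-142622031, 3506 bp, summit in the first exon) up the lists at both times, with the largest changes of the 31 elements on the scale of floored ranks (not on the percentile scale given below). At 0 h its rank was 40446, 37520 and 29880 in WT and 27045, 21085 and none in Nur77-KO. At 1 h it was 9519 and 9154 in WT and 7999, 12530 and 10562 in Nur77-KO. At 18 h it was 7338, 10004 and 7836 in WT and 14525, 9693 and 8032 in Nur77-KO. Every list with LPS stood above every list without it, and the 1 h lists were about as high as the 18 h lists. The change was 1.29 ± 0.18 (SE, adjusted p = 3.4e-05) at 1 h and 1.35 ± 0.17 (adjusted p = 1.97e-05) at 18 h. These values are floored, since 5 of the 6 lists at 0 h lay beyond rank 24389. Where an interval had to cover 50% of the element, the change was 0.27 (not called) at 1 h and 0.78 (called) at 18 h, and with the 10000 best intervals it was 0.10 and 0.19, neither called. The deposited −log10 p-value of the same peak, which was not set against the other peaks of its list, did not follow this order: it was 55.5 in Nur77-KO 0 h replicate 1 and 34.1 in Nur77-KO 18 h replicate 3.

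On the scale of floored ranks Gbp5 was called at 1 h and not at 18 h. Its promoter element (chr3:142496066-142497774) held peaks of rank 54920 and 53487 in 2 of the WT lists at 0 h, of rank 45937 in 1 Nur77-KO list, and none in the other three. At 1 h the rank was 9494 and 13534 in WT and 10906, 20472 and 11458 in Nur77-KO. At 18 h it was 14541, 25017 and 23079 in WT and 32378, 17220 and 14695 in Nur77-KO. The 1 h lists all stood above the 0 h lists, by 0.97 ± 0.19 (adjusted p = 0.000961), while 2 of the 18 h lists lay beyond rank 24389 and the change was 0.34 ± 0.18 (adjusted p = 0.185). The intronic element 2.4 kb downstream of the Gbp5 start had the same form, with 0.53 ± 0.11 (adjusted p = 0.00188, but 0.0666 with the exact permutation test) at 1 h and 0.05 ± 0.11 (adjusted p = 0.829) at 18 h. The intronic element was among the best 24389 in 4 lists at 1 h and 1 at 18 h. It needed the 1 h lists to pass the filter of 2 lists, so that its change at 1 h is a description. The difference between 1 h and 18 h was not tested. On a scale without the floor, the percentile of the rank in the whole list with 0 for no peak, the Gbp5 promoter was called at both times, with 53.5 ± 11.7 percentile points (adjusted p = 0.00271) at 1 h and 35.3 ± 11 (adjusted p = 0.0243) at 18 h.

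Other elements of the Gbp5 locus moved at both times or late. The element 3.3 kb upstream of Gbp5 spans the start of its GENCODE gene body, at 142493978. At 0 h it ranked 20152 to 27156 in the WT lists and 22762, 24502 and none in the Nur77-KO lists. It ranked 10489 to 16393 in the 5 lists at 1 h and 5264 to 19313 in the 6 lists at 18 h, all above those at 0 h. Its change was 0.88 ± 0.25 (adjusted p = 0.0153) and 0.75 ± 0.24 (adjusted p = 0.0296), the latter 0.45 ± 0.13 (adjusted p = 0.013) without Nur77-KO 18 h replicate 1. The call at 1 h was lost without WT 1 h replicate 3 (0.82), and that at 18 h in 8 of the 17 fits without 1 list. Neither call was kept on the percentile scale (adjusted p = 0.25 at 1 h and 0.381 at 18 h). The element 8.8 kb upstream of Gbp7, in the last part of Gbp5, had a peak in 1 of 6 lists at 0 h, in 5 of 5 at 1 h and in 6 of 6 at 18 h. Its change was 0.74 ± 0.23 (adjusted p = 0.0252) at 1 h and 0.70 ± 0.22 (adjusted p = 0.0293) at 18 h, and the exact permutation test did not call it at 1 h. Neither call was kept in every fit without 1 list: it was lost in 3 of 17 at 1 h and in 9 of 17 at 18 h. The element 18.3 kb upstream of Gbp5 moved at 18 h by 0.73 ± 0.15 (adjusted p = 0.00172), with ranks of 9499 to 22425 in the 6 lists and none better than 31160 at 0 h. At 1 h its 3 peaks ranked 25452 to 26793, beyond the floor. Only the 18 h lists, in which it was then higher, had made this stretch an element, so that its change is a description. The call was lost on the percentile scale (33.8 ± 12.4 points, adjusted p = 0.0542).

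Gbp3 and Gbp7, neighbours of Gbp5, already had ranked promoter peaks in all lists without LPS. The Gbp3 promoter element (chr3:142559492-142562139) ranked 14566, 14066 and 13276 in WT and 13941, 20349 and 8138 in Nur77-KO at 0 h. It ranked 5368 and 8246 in WT and 7118, 6445 and 5029 in Nur77-KO at 1 h. At 18 h its ranks were 8682, 6717 and 6396 in WT and 18255, 6639 and 9438 in Nur77-KO. The change was 1.09 ± 0.27 (adjusted p = 0.00597) at 1 h, where 1 list at 1 h (WT replicate 3, 8246) lay just below the best list at 0 h. Where an interval had to cover 50% of the element, the change at 1 h turned to −0.24. At 18 h it was 0.65 ± 0.26 and missed the threshold (adjusted p = 0.0766). The Gbp7 promoter element ranked 12899 to 15601 at 0 h, 5469 to 10687 at 1 h and 5042 to 22153 at 18 h. The 1 h lists did not overlap the 0 h lists, but the change of 0.77 ± 0.29 missed the threshold of limma (adjusted p = 0.0586) and passed that of the exact permutation test (adjusted p = 0.0272). At 18 h the change was 0.44 ± 0.28 (adjusted p = 0.274). At both promoters the lowest of the 18 h lists was Nur77-KO replicate 1, and without it the changes at 18 h were 0.85 ± 0.22 at Gbp3 (adjusted p = 0.00885) and 0.72 ± 0.21 at Gbp7 (adjusted p = 0.0155).

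The other element of the Gbp2 locus, 18.2 kb downstream of its start (chr3:142636897-142639700), was a late one. It had no peak in any of the 6 lists at 0 h and a single peak, of rank 68807, at 1 h. Its ranks at 18 h were 18845, 29088 and 23301 in WT and 19052, 9530 and 12229 in Nur77-KO. Its change at 18 h was 0.52 ± 0.12 (adjusted p = 0.00513, but 0.0769 with the exact permutation test). It had passed the filter of 2 lists through 18 h lists alone, so that this change is a description.

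The promoter elements of Gbp9 and Gbp4 on chromosome 5 differed in their state without LPS. The summit of the latter also lay within 1 kb of annotated starts of Gbp8 and Gbp9. The Gbp9 promoter element (chr5:105109673-105111054) ranked 22598, 22573 and 17282 in WT and 17756, 16508 and 20831 in Nur77-KO at 0 h. It ranked 14078 and 10179 in WT and 13586, 13261 and 22578 in Nur77-KO at 1 h, and 8969, 8721 and 12826 in WT and 7224, 11492 and 10865 in Nur77-KO at 18 h. Every 18 h list stood above every 0 h list, by 0.98 ± 0.19 (adjusted p = 0.000867), and at 1 h the groups overlapped (0.49 ± 0.20, adjusted p = 0.0711). On the percentile scale the Gbp9 promoter was not called at 18 h (14.8 ± 8.91 points, adjusted p = 0.244). The Gbp4 promoter element (chr5:105139188-105140004) had no peak in any 0 h list and 1 peak at 1 h, of rank 26874. Its ranks at 18 h were 24561, 24888 and 19606 in WT and 15483, 18909 and 13579 in Nur77-KO. Its change was 0.36 ± 0.08 (adjusted p = 0.00277, but 0.149 with the exact permutation test), a floored value. The Gbp4 promoter, too, was an element through 18 h lists alone, and this change is a description. The element 3.9 kb upstream of Gbp9 had a peak in all 6 lists at 18 h and in none of the 11 others, at ranks of 17908 to 34229, and did not pass the test (0.11 ± 0.05, adjusted p = 0.0958).

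Both promoters hold repeated sequence. Of the 32-base words near the summit of the Gbp9 promoter element, 64.8% occurred more than once in the genome, and of those at Gbp4 68.1%. At the Gbp2, Gbp3, Gbp5 and Gbp7 promoters it was 0%. The paired reads were 32 and 44 bases long and were kept only at a mapping quality of at least 20, and the levels at Gbp9 and Gbp4 are therefore uncertain.

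**Figure D2:**
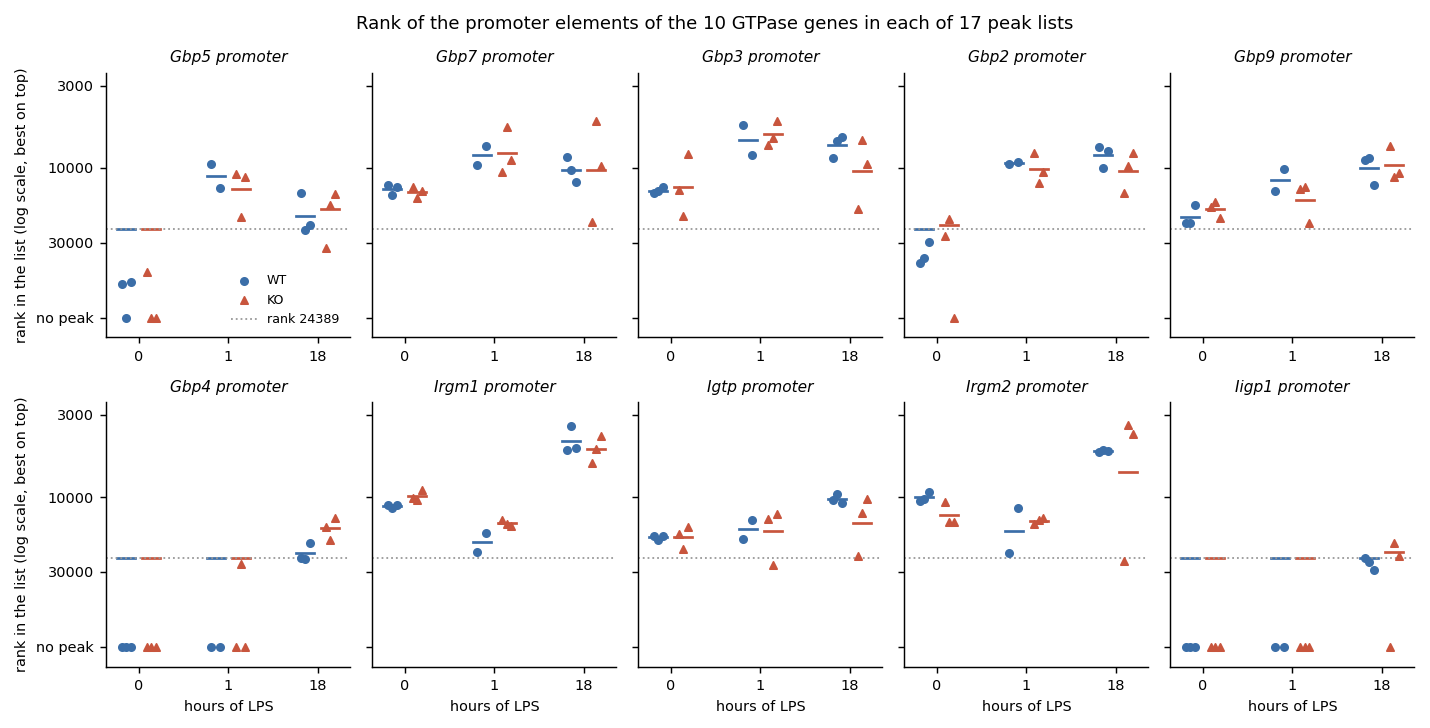
Rank of each promoter element in every list (y axis, log scale, best on top, with lists without a peak at the bottom) at 0, 1 and 18 h of LPS (x axis), for WT (circles) and Nur77-KO (triangles). Short lines are the group means of log rank with ranks beyond 24389 (dotted line) set to 24390, and the Gbp2 promoter stands at ranks of 7338 to 14525 in every list with LPS.

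Irgm1 moved down the lists at 1 h and up at 18 h. Its promoter element, merged over 6689 bp (chr11:48866581-48873269), ranked 11281, 11740 and 11243 in WT and 10134, 10522 and 8990 in Nur77-KO at 0 h. At 1 h it ranked 22418 and 16924 in WT and 13949, 14885 and 15323 in Nur77-KO, all below the lists without LPS. At 18 h it ranked 5041, 3519 and 4868 in WT and 6037, 4954 and 4108 in Nur77-KO, all above them. The change was −0.67 ± 0.17 (adjusted p = 0.00801) at 1 h and 1.18 ± 0.17 (adjusted p = 6.09e-05) at 18 h. Where an interval had to cover 50% of the element, the changes were 0.00 and 0.38 and neither was called. On the percentile scale the call at 1 h was kept (−27.9 ± 7.28 points, adjusted p = 0.00859) and that at 18 h was lost (9.27 ± 6.86, adjusted p = 0.352). Of the 10 promoters, that of Irgm1 alone was called down the list at 1 h. The same order was seen at Irgm2, without a call: its promoter element ranked 9253 to 14525 at 0 h and 11694 to 22868 at 1 h. The ranks of the Irgm2 promoter at 18 h were 5161, 5047 and 5060 in WT and 25408, 3486 and 3956 in Nur77-KO. The changes of the Irgm2 promoter were −0.41 ± 0.37 (adjusted p = 0.463) and 0.94 ± 0.35 (adjusted p = 0.0617). Without Nur77-KO 18 h replicate 1 the change at 18 h was 1.40 ± 0.17 (adjusted p = 1.83e-05).

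Other elements near Irgm1 moved at 18 h. The element 8.1 kb downstream of its start (within the gene, exonic) had 3 peaks at 0 h, at ranks of 61497 to 66490, none at 1 h, and a peak in all 6 lists at 18 h, at 17704 to 35954. The change of 0.18 ± 0.06 passed the limma threshold (adjusted p = 0.0271) but not that of the exact permutation test (adjusted p = 0.0769), and it was lost in 5 of the 17 fits without 1 list. Only 18 h lists had made this stretch an element, so that the change is a description. The element 17.6 kb downstream, 2.6 kb from the end of Trim7, was the highest ranked of the 31 without LPS, at 3045 to 4807, and ranked 4421 to 6491 in 5 lists at 18 h and 19965 in Nur77-KO 18 h replicate 1. Its change was −0.81 ± 0.28 (adjusted p = 0.047), and −0.50 ± 0.19 (adjusted p = 0.055) without that list. The call was also lost with another order of tied ranks, with the exact permutation test, and without any 1 of 13 other lists.

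At the locus of Igtp and Irgm2 the element 15.8 kb upstream of Igtp (chr11:58183353-58185814) had the largest change called. At 0 h it ranked 27710, 27067 and 28604 in WT, and 32846, none and none in Nur77-KO. At 1 h it had no peak in the WT lists and ranked 24654, none and 34282 in Nur77-KO. After 18 h the ranks were 11401, 11714 and 9852 in WT and 22623, 13501 and 11254 in Nur77-KO. Every 18 h list stood above every 0 h list, by 0.92 ± 0.13 (adjusted p = 8.81e-05), while no 0 h or 1 h list reached the best 24389. The element had passed the filter of 2 lists through these 18 h lists alone, so that the rise is a description. The call was lost on the percentile scale (28.0 ± 11.6 points, adjusted p = 0.0862). The Igtp promoter element ranked 15545 to 21322 at 0 h, 12921 to 27127 at 1 h, and 10408, 9629 and 10947 in WT and 23869, 12552 and 10316 in Nur77-KO at 18 h. Its summit also lay within 1 kb of an annotated start of Irgm2. Its change at 18 h was 0.55 ± 0.20 (adjusted p = 0.0563), and 0.73 ± 0.17 (adjusted p = 0.00368) without Nur77-KO 18 h replicate 1. The element 9.5 kb downstream of the Irgm2 start had no peak in any of the 5 lists at 1 h, a peak in 5 of 6 at 0 h (24695 to 41780) and in 6 of 6 at 18 h (18410 to 24221), with a change of 0.17 ± 0.05 (adjusted p = 0.0188). This element also rested on 18 h lists alone, so that its change is a description. Near the summits, 42.2% of the 32-base words of the Igtp promoter element and 47% of those of the Irgm2 promoter element occurred more than once in the genome, against 0% at the element 15.8 kb upstream of Igtp and at the Irgm1 promoter.

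Iigp1 had no promoter peak until 18 h. Its promoter element (chr18:60375662-60376542) held none in the 11 lists at 0 and 1 h, ranked 24609, 25798 and 29169 in WT at 18 h, and was absent, 19732 and 23647 in Nur77-KO. Because 3 of these 5 ranks lay beyond 24389, the floored change was only 0.06 ± 0.04 (adjusted p = 0.331). On the percentile scale the Iigp1 promoter was called, with 34.6 ± 7.30 points (adjusted p = 0.0017). The element 17.9 kb downstream of the start was also found only at 18 h, in 5 of 6 lists, at ranks of 12440 to 31982 (0.20 ± 0.11, adjusted p = 0.2). The intronic element 5.5 kb downstream ranked 46082 to 59730 in 4 lists at 0 h and 13553 to 26296 in 5 lists at 18 h. Its change was 0.30 ± 0.11 (adjusted p = 0.0478). The call was lost with another order of ties and without any 1 of 14 of the 17 lists, and without Nur77-KO 18 h replicate 1 the change was 0.38 ± 0.10 (adjusted p = 0.0122). The Iigp1 elements had all passed the filter of 2 lists through 18 h lists alone, so that these changes are a description. Of the 32-base words near the Iigp1 promoter summit, 55.9% occurred more than once.

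**Figure D3:**
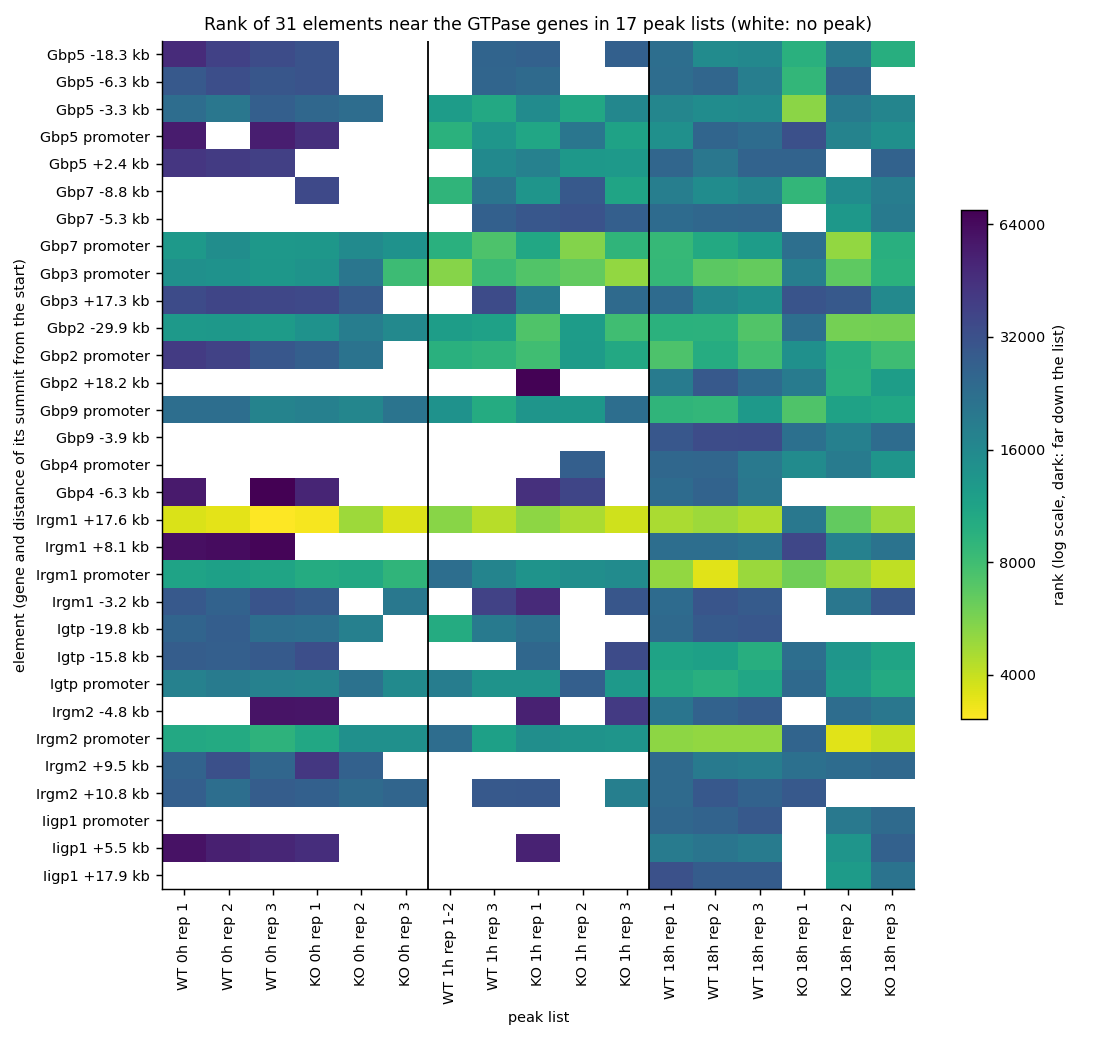
Rank of the 31 elements (rows, by locus) in the 17 lists (columns, ordered by hours of LPS and then genotype), on a log colour scale, white where a list has no peak. The WT 18 h lists have a peak at all 31 elements, and the 3 elements without a peak at 0 and 1 h (3.9 kb upstream of Gbp9, the Iigp1 promoter and 17.9 kb downstream of Iigp1) have one in 6, 5 and 5 of the 6 lists at 18 h.

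Counted over the loci, GTPase elements with a peak among the best 24389 numbered 9 to 12 in the 6 lists at 0 h, 11 to 16 in the 5 lists at 1 h and 17 to 26 in the 6 lists at 18 h. Of all elements, 63.2 to 70.3%, 59.5 to 68% and 56.2 to 70.3% had one in the lists of these times. The rise at 18 h is partly fixed by the filter of 2 lists: 13 of the 31 elements (41.9%, against 6.07% of all) reached the best 24389 at 18 h alone and were elements only through those lists. In the whole lists, none of the 31 was without a peak in the WT lists at 18 h, which held 46364 to 61492 intervals. In WT at 0 h, where the lists were longer (63097 to 71456), 21 to 24 of the 31 had one. In Nur77-KO 23, 27 and 27 had one at 18 h, in lists of 29568 to 36136 intervals. At 0 h 23, 14 and 10 had one in Nur77-KO, in lists of 27429 to 70397. A further 53 merged regions of the whole lists lay in the windows without reaching the status of an element, 23 of them in a single list.

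At 1 h, 6 of the 31 elements (19.4%) moved up, all of them at the Gbp5, Gbp7, Gbp3 and Gbp2 genes of chromosome 3, and 1 (3.23%) moved down. Among all 34186 elements 13.8% moved up and 14.2% down. The median change was 0.00 over the 31 elements and −0.03 over all. At 18 h, 12 (38.7%) moved up, in each of the 6 loci, and 1 (3.23%) moved down, against 10.9% and 12.7% of all elements, with a median change of 0.34 over the 31 and 0.00 over all. Of the 10 promoters, 3 moved up and 1 down at 1 h, and 4 moved up at 18 h (Gbp2, Gbp4, Gbp9 and Irgm1). Every list with LPS stood above every 0 h list at 5 elements (16.1%) at 1 h and at 8 (25.8%) at 18 h, against 8.53% and 5.47% of all elements. Of the 12 called up at 18 h, 7 (58.3%, against 17.3% of all elements called up) had passed the filter through 18 h lists alone, the group in which they were then higher, so that these counts are a description. None of the 6 called up at 1 h had passed through 1 h lists alone. The element 2.4 kb downstream of Gbp5 needed them, however, with 1 further list at 18 h and none at 0 h. The place of the Iigp1 locus among the 6 rests on 1 element, whose call was lost in most fits without 1 list. The 1 h and 18 h comparisons share the 0 h lists. On the percentile scale 5 of the 7 calls at 1 h were kept and 1 was gained, and at 18 h 6 of the 13 were kept, 7 lost and 6 gained, where 5.55% of all elements were called up and 20% down at 1 h and 4.38% and 15.8% at 18 h. Where an interval had to cover 50% of the merged element, 1 of the 31 was called up at 1 h and 4 at 18 h, against 4.55% and 3.52% of all elements up and 14.6% and 7.94% down.

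The number called at 18 h depended on single lists. It fell from 13 to 8 without WT 0 h replicate 1, WT 0 h replicate 3, WT 18 h replicate 3 or Nur77-KO 0 h replicate 1, and rose without Nur77-KO 18 h replicate 1, the list with the narrow intervals. Without the latter 21 of the 31 (67.7%) moved up and none down, against 13.9% and 13.4% of all elements. At 1 h, where the list enters only through the shared spread, 9 (29.0%) moved up and 1 down without it, against 15.5% and 18.6%. Of the 10 promoters, 8 moved up at 18 h without it, the exceptions being Gbp5 (0.45 ± 0.17, adjusted p = 0.0705) and Iigp1 (0.09 ± 0.04, adjusted p = 0.0951). Part of the 21 that moved up had passed the filter of 2 lists through 18 h lists alone. Their share is therefore a description.

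Within each genotype the same fit called fewer elements. In WT, 3 of the 31 moved up at 1 h, against 7.94% of all elements up and 6.2% down, and 5 moved up at 18 h, against 4.98% and 5.2%. In Nur77-KO, 4 moved up at 1 h, against 9.33% up and 6.27% down, and 9 moved up at 18 h, against 6.73% and 8.42%. None of the 31 moved down in these 4 comparisons. In each genotype some elements called up at 18 h had passed the filter of 2 lists through 18 h lists alone, so that these counts are a description. The 2 genotypes were not tested against each other by these counts.

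**Figure D4:**
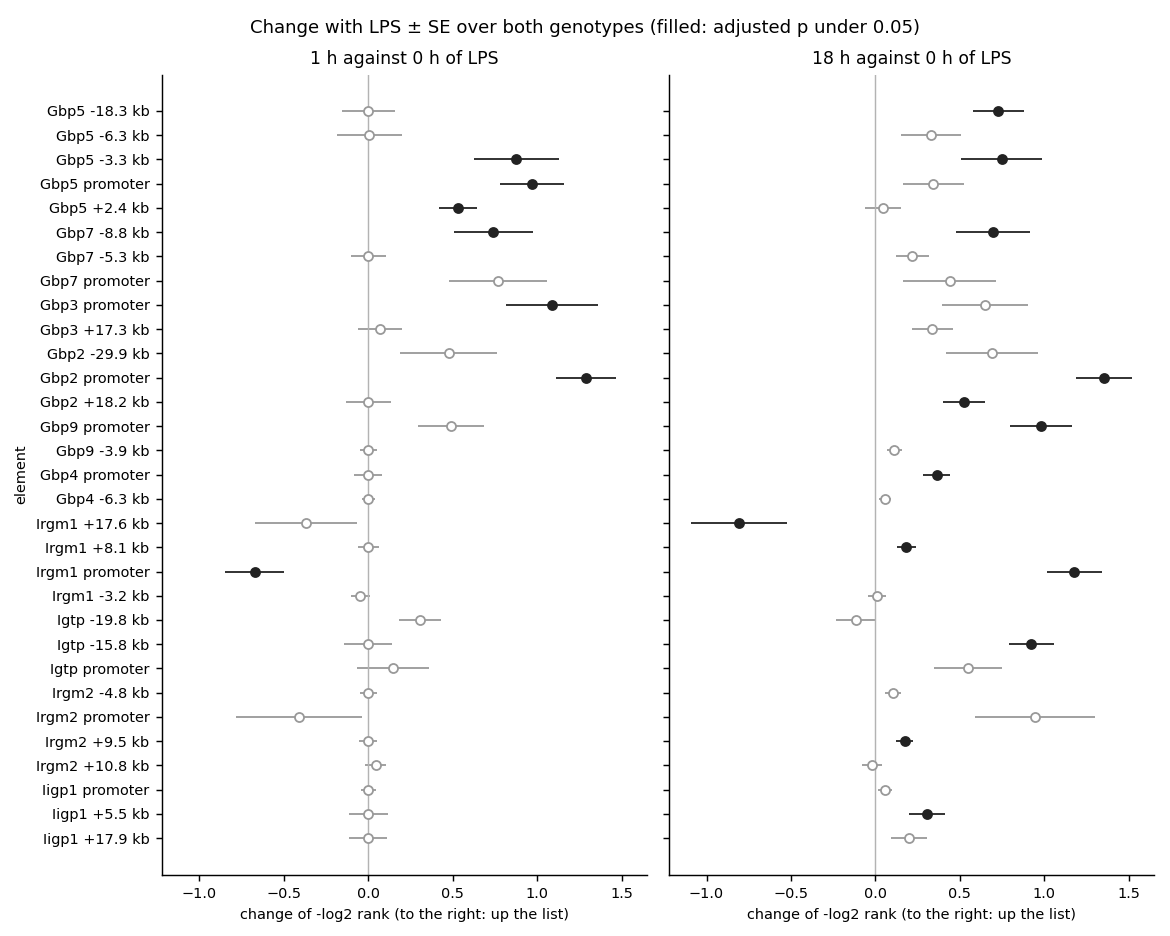
Change of −log2 rank at 1 h (left) and 18 h (right) against 0 h, averaged over both genotypes, for each of the 31 elements (rows), with bars of 1 SE and filled points where the adjusted p is under 0.05. The 6 filled points to the right at 1 h all belong to the loci of chromosome 3, and the 12 at 18 h lie in the 6 loci, 1 of them at Iigp1.

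Loss of Nur77 gave no call at any of the 31 elements when averaged over the 3 times. The changes in Nur77-KO against WT ran from −0.32 ± 0.24 at the element 17.6 kb downstream of Irgm1 (adjusted p = 0.682) to 0.25 ± 0.11 at the element 18.2 kb downstream of Gbp2 (adjusted p = 0.459). Of all elements, 0.137% were called up and 0.266% down in the Nur77-KO. In both directions together that is 0.404%, which ran from 0.246% to 3.28% over the fits without 1 list, the highest without WT 1 h replicate 3, and was 2.29% with a cover of 50%. At an unadjusted p under 0.05, limma had 2 of the 31, against 9.42% of all elements, and the exact permutation test none, against 7.04%, and the latter made no call over the whole genome either. Adjusted over all elements, the smallest p of that test, 0.00025, passes only where many elements reach it, so that its lack of calls is no measure of the difference. A difference of a size below the spread of these lists cannot be seen here.

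The LPS responses of the 2 genotypes gave no call either. The difference of the 1 h responses, Nur77-KO minus WT, was largest at the element 19.8 kb upstream of Igtp, at −0.92 ± 0.25 (adjusted p = 0.264), followed by 0.73 ± 0.58 at the element 29.9 kb upstream of Gbp2 (adjusted p = 0.903). The former, 0.2 kb from Mrpl22, ranked 10184 and 19179 in WT at 1 h and had 1 peak, of rank 22212, in the 3 Nur77-KO lists. The difference of the 18 h responses was largest at the element 18.2 kb downstream of Gbp2, at 0.76 ± 0.25 (adjusted p = 0.64), followed by −0.72 ± 0.57 at the element 17.6 kb downstream of Irgm1 (adjusted p = 0.862). Over all elements 0.105% were called at 1 h and 0% at 18 h. Over the fits without 1 list these shares ran from 0.038% to 3.54% at 1 h, the highest without WT 1 h replicate 3, and from 0% to 0.41% at 18 h, the highest without Nur77-KO 18 h replicate 2. Without WT 1 h replicate 3, where the WT 1 h group is 1 list assumed to vary like the other groups, the element 19.8 kb upstream of Igtp was called in the 1 h difference and averaged over the times, lower in Nur77-KO, and without Nur77-KO 18 h replicate 1 the element 18.2 kb downstream of Gbp2 was called in the 18 h difference and averaged over the times, higher in Nur77-KO. Without Nur77-KO 18 h replicate 2 the Gbp4 promoter was called in the 18 h difference, also higher in Nur77-KO. The Gbp4 promoter was an element mainly through the Nur77-KO lists at 18 h, so that this call is a description. At the Gbp2 promoter the response was 1.39 ± 0.26 in WT and 1.19 ± 0.24 in Nur77-KO at 1 h, and 1.55 ± 0.24 and 1.16 ± 0.24 at 18 h, and the differences were −0.20 ± 0.35 (adjusted p = 1) and −0.40 ± 0.33 (adjusted p = 0.871).

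At 0 h alone none of the 31 was called between the genotypes, against 0.0527% of all elements higher and 0.126% lower in Nur77-KO, and at 1 h alone none, against 0.407% and 0.687%. At 18 h alone the Gbp4 promoter was called higher in Nur77-KO, by 0.52 ± 0.11 (adjusted p = 0.0427), and none lower, against 0.24% and 0.401% of all elements. The element had passed the filter of 2 lists through the 3 Nur77-KO lists at 18 h and WT 18 h replicate 3 (rank 19606). It was thus chosen mainly by the group in which it was then higher, so that this call is a description. The other WT ranks at 18 h, 24561 and 24888, lay beyond rank 24389. Of the 32-base words near the summit of this element, 68.1% occurred more than once in the genome. All 3 Nur77-KO ranks were better than all 3 WT ranks. The Nur77-KO lists were shorter, however, and as a share of its own list the peak stood at 42.8%, 64% and 42.2% from the top in Nur77-KO and at 39.9%, 47.7% and 42.3% in WT, so that the groups overlapped. The part of list length in the difference was not tested, and the genotypes at single times were not refitted without single lists.

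**Figure D5:**
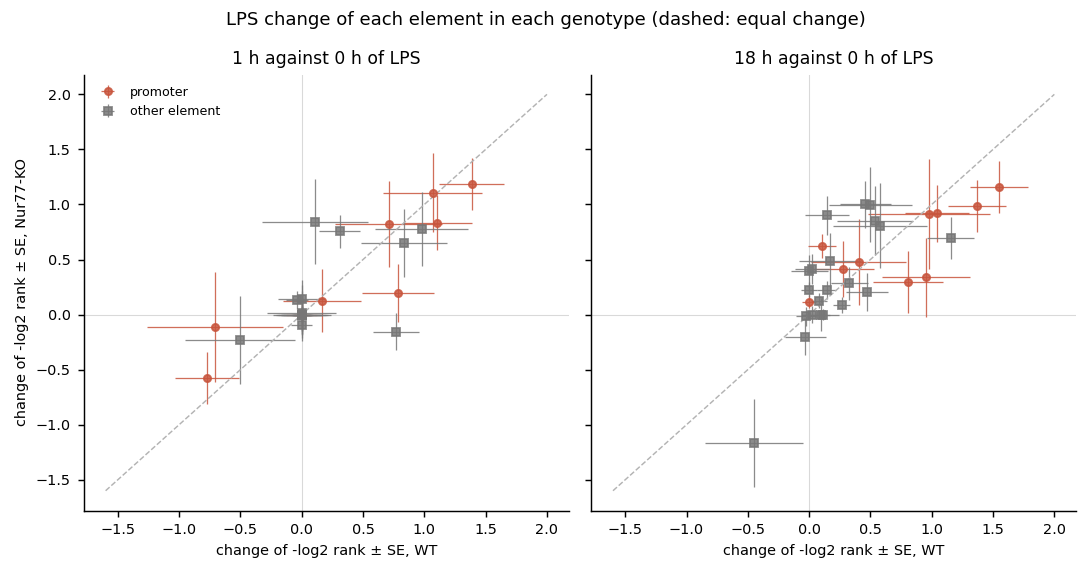
Change of −log2 rank with LPS in WT (x axis) and in Nur77-KO (y axis) for each of the 31 elements, with bars of 1 SE, at 1 h (left) and 18 h (right), promoters as circles and other elements as squares. The dashed line marks equal change, and no element was called for a difference between the LPS responses of the genotypes at either time.

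Interferon-inducible GTPase genes other than the 10 were called at 18 h and not at 1 h. Of 14 such genes, 7 had a promoter element, and one of these, given for Gbp8, is the Gbp4 promoter element itself, by way of a long annotated transcript. None was called at 1 h, where 13.8% of all elements moved up and 14.2% down. At 18 h 6 of the 7 moved up, against 10.9% of all: Gbp6 (0.67 ± 0.18, adjusted p = 0.0113), Gbp8, Gbp10 (0.72 ± 0.12, adjusted p = 0.000416), Tgtp2 (0.42 ± 0.09, adjusted p = 0.00187), Gm4951 (1.14 ± 0.13, adjusted p = 7.55e-06) and Mx1. Mx1, which encodes an antiviral dynamin-like GTPase, moved furthest, by 3.17 ± 0.31 (adjusted p = 2.43e-06), from ranks of 12176 to 16390 at 0 h to 800 to 3854 at 18 h. Gvin1 was the seventh, with 0.15 ± 0.09 (adjusted p = 0.251). Of the 6, 4 (Gbp6, Gbp8, Gbp10 and Tgtp2) had passed the filter of 2 lists through 18 h lists alone, so that this count and the changes of these 4 are a description. None of the 7 was called in Nur77-KO against WT.

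Of 20 genes that act upstream of the GTPases, 19 had a promoter element, Ifnb1 being the exception. At 1 h none moved up and 1 down, against 13.8% and 14.2% of all elements: Tlr4, the LPS receptor (−0.98 ± 0.29, adjusted p = 0.0166). At 18 h 5 (of 19) moved up and none down, against 10.9% and 12.7%. These were Irf7 (3.37 ± 0.26, adjusted p = 3.67e-07), Stat2 (1.63 ± 0.34, adjusted p = 0.0018), Tbk1 (1.20 ± 0.35, adjusted p = 0.0189), Irf9 (1.04 ± 0.32, adjusted p = 0.0233) and Ifngr2 (0.92 ± 0.25, adjusted p = 0.0115). Stat2 and Irf9 encode factors of interferon signalling, Irf7 and Tbk1 act in the induction of interferon genes, and Ifngr2 is a chain of the interferon-gamma receptor.

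The promoter elements whose ranks over the 17 lists were most like those of the Gbp2 promoter, among 10302 outside the loci, were those of Trim30c (Pearson r = 0.959), Birc3 (0.955), Rtp4 (0.951), Rsad2 (0.93) and Ccl5 (0.927). The points share the floor at rank 24390 and the 3 time groups. At Rsad2, which encodes the antiviral protein viperin, the change was 2.21 at 1 h and 2.81 at 18 h, and at Ccl5, a chemokine gene, 2.58 and 3.21.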

How the data were processed

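ATAC-seq peak lists of 17 BMDM samples were used, 1 list per sample. Per the labels and the study's methods, the authors trimmed the paired reads with cutadapt 2.6, mapped them to mm10, removed mitochondrial reads and duplicates, kept mapping qualities of at least 20, and called peaks in each sample at a q-value of 0.001. DiffBind 3.0.15 is also named in the submitters' processing notes, and the versions of the aligner and the peak caller are not given in the sources used here. Each deposited interval carries, as the authors' peak caller wrote them, a −log10 p-value, a −log10 q-value, a fold enrichment at the summit and a score. The deposited score is 10 times the −log10 q-value. These files hold no reads per peak, so the sequencing depth is unknown, and peak lists give presence and order only.

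The lists were ranked by −log10 p-value, entries sharing coordinates were collapsed, and ties were ordered at random with a fixed seed. The best 24389 intervals of each list, the length of the shortest, were merged where they overlapped by at least 1 bp, and regions seen in at least 2 lists were kept as elements. The −log2 ranks were fitted with limma 3.58.1 (R 4.3.3, trend and robust) on 6 means of genotype and LPS time over all 17 lists, with Benjamini-Hochberg adjustment over all 34186 elements and a threshold of 0.05. An exact permutation test regrouped lists within genotype for LPS and within time for genotype. The smallest p it can give is 0.00025 for genotype and 0.005 for the other contrasts. Both tests were tested on simulated data, where limma called some elements without a shift, more often those with many lists at the floor, so its calls at floored elements that the exact test did not make are uncertain. Ranks, motifs and figures were made with Python 3.11.15, pandas 2.3.3, numpy 2.4.6 and matplotlib 3.10.9.

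The 10 genes and the gene lists were chosen with earlier results of these data known. The text names the promoter elements of all 10 genes, up to 6 called elements per comparison by smallest adjusted p, the 2 largest changes where none was called, the best-ranked element of each locus, and the 5 promoter elements most like the leading one. The other elements were named after their values were seen. Some marker and listed gene values are not reported here. Alternatives were another number of intervals, a percentile scale, the number of intervals as a covariate, the replicate block, overlap, filter, tie order, call size, summit distance and leaving out each list. Sequences are from mm10 and RefSeq (GRCm38.p6).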

Additional observations from a re-analysis of the deposited data

How the results depend on the processing

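In the report 7 of the 31 elements were called at 1 h and 13 at 18 h. Keeping the 10000 best intervals left 0 calls at 1 h and 1 at 18 h, and lowered the number called among all 34186 elements too, to 903 and 291. Requiring an interval to cover 50% of the element left 1 and 4, turned the Gbp3 promoter to −0.24 at 1 h, and gave 1 call in Nur77-KO against WT and 1 in the difference of the 18 h responses, both lower at the element 15.8 kb upstream of Igtp. Requiring a change of at least 1 left 2 and 2. At 18 h the number of intervals as a covariate left 7 and the exact permutation test 8. Alone, in contrasts added after seeing the data, WT had 3 calls at 1 h and 5 at 18 h and Nur77-KO 4 at 1 h, and Nur77-KO against WT had 0 at 0 h, 0 at 1 h and 1 at 18 h. Leaving out 1 list gave 6 to 10 calls at 1 h and 8 to 21 at 18 h. At 18 h there were 8 without WT 0 h replicate 1, WT 0 h replicate 3, WT 18 h replicate 3 or Nur77-KO 0 h replicate 1, and 21 without Nur77-KO 18 h replicate 1. Leaving out 1 list gave 0 to 1 for Nur77-KO against WT (19.8 kb upstream of Igtp without WT 1 h replicate 3, 18.2 kb downstream of Gbp2 without Nur77-KO 18 h replicate 1). The difference of the 1 h responses had 0 to 1 (19.8 kb upstream of Igtp without WT 1 h replicate 3), and that of the 18 h responses 0 to 1 (18.2 kb downstream of Gbp2 without Nur77-KO 18 h replicate 1, the Gbp4 promoter without Nur77-KO 18 h replicate 2). The cause of these changes was not tested. The percentile scale (6 and 12 calls), other filters (6 to 8 and 9 to 16), another tie order (7 and 12) and a summit within 500 bp (7 and 11, added after seeing the data) moved the counts at both times by less than 1.5 times. The elements were not all the same: at 18 h the percentile scale lost 7 calls (the Irgm1 and Gbp9 promoters and elements 18.3 and 3.3 kb upstream of Gbp5, 15.8 kb upstream of Igtp, 17.6 kb downstream of Irgm1 and 9.5 kb downstream of Irgm2) and gained 6 (the Gbp5 and Iigp1 promoters and elements 5.3 kb upstream of Gbp7, 3.9 kb upstream of Gbp9, 17.9 kb downstream of Iigp1 and 4.8 kb upstream of Irgm2). At 1 h it lost the Gbp3 promoter and the element 3.3 kb upstream of Gbp5 and gained the element 9.5 kb downstream of Irgm2, lower. With windows of 5 and 50 kb there were 26 and 45 elements.

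With the replicate block, which left out WT 1 h replicate 1-2 because its label carries both numbers, 5 elements were called at 1 h, 11 at 18 h and 0 in the other comparisons. The calls lost at 1 h were the Gbp3 and Irgm1 promoters and the element 8.8 kb upstream of Gbp7, and the Gbp9 promoter was gained. Those lost at 18 h were the elements 17.6 kb downstream of Irgm1 and 5.5 kb downstream of Iigp1. Without WT 1 h replicate 1-2 and without the block, the Gbp3 and Irgm1 promoters were called at 1 h. Of 35 same-numbered pairs, 4 correlated above 0.1 (r from −0.225 to 0.206), so the lists share only a number.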
